A study of Solanum tuberosum with 10 samples.

Results

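The genes described here are the 150 steadiest genes of the deposited potato table, that is, the genes whose transcript level differed least between 10 RNA-seq libraries. They were chosen from the features with a PGSC gene identifier (the names given by the potato genome consortium), 39021 of the 40430 features. A gene was eligible when its mean log2 RPM over the 10 libraries was at least 4, which 12445 genes met. RPM is reads per 1000000 reads of the library, and a log2 RPM of 4 is 16 RPM. The eligible genes were ordered by the standard deviation (SD) of their log2 RPM over the 10 libraries, and the 150 of smallest SD were taken. That SD is the value that chose them, so it is described here and not tested.

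Steady genes matter for work such as RT-qPCR, where the level of a transcript is given relative to reference genes that are taken to be at the same level in every sample. Reference genes are usually picked from the basic machinery of the cell, such as the cytoskeleton, sugar metabolism, protein synthesis and ubiquitin. A gene that suits a comparison of treatments may still change while a plant regenerates, so steadiness holds for the samples in which it was looked at. GAPDH and Actin, the genes to which the study normalised its RT-qPCR, were not analysed here.

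All libraries came from in vitro cultures of the wild-type potato (Solanum tuberosum L.) cultivar Desirée, grown without growth regulators from single-node segments of plantlets aged 4 w. The control explants were left untreated, and the US explants received ultrasound at 35 kHz and 70 W for 20 min. Both were sampled right after the exposure (0 h), a day (24 h) and a further day (48 h) on, and in subculture at 1 w and at 4 w, with 1 library per treatment and time. Per the methods of the study, material was explants up to 48 h (6 libraries) and leaves, stems and roots of plantlets at 1 w and 4 w (4 libraries), whereas the labels name leaf throughout, so time and kind of material cannot be told apart between these stages. In such mixed material, fewer cells of a type and less RNA per cell cannot be told apart either.

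The methods describe biological replicates as pooled, and the labels speak of a single replicate. No value here has a replicate check. The smallest library held 33850938 reads and the largest 45899162, and 1 RPM was worth 33.9 and 45.9 reads in them. The eligible genes as a whole were low at 0 h, with a median deviation from their own means of -0.30 on the log2 scale in the control and -0.21 in US, against -0.04 to 0.12 in the other 8 libraries. RBCS-2C, the gene of a small subunit of the carbon-fixing enzyme Rubisco and so a marker of green tissue, was present at 1359.7 to 8793 RPM in every library.

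The 150 genes varied little in absolute terms. Their SD of log2 RPM ran from 0.079 to 0.163 with a median of 0.145, where the median over the eligible genes was 0.508. The highest library of a gene was 1.16 to 1.4965 times its lowest, with a median of 1.37 times, beside 2.98 times for the eligible genes. On the linear scale the coefficient of variation of RPM was 5.45% to 11.8%. Each gene had 523 to 171235 reads in a library. The SD that counting independent reads would give had a median of 0.028 and reached 0.057, and the measured SD was 2.19 to 36.8 times as large, under 3 times in 13 genes.

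**Figure D1:**
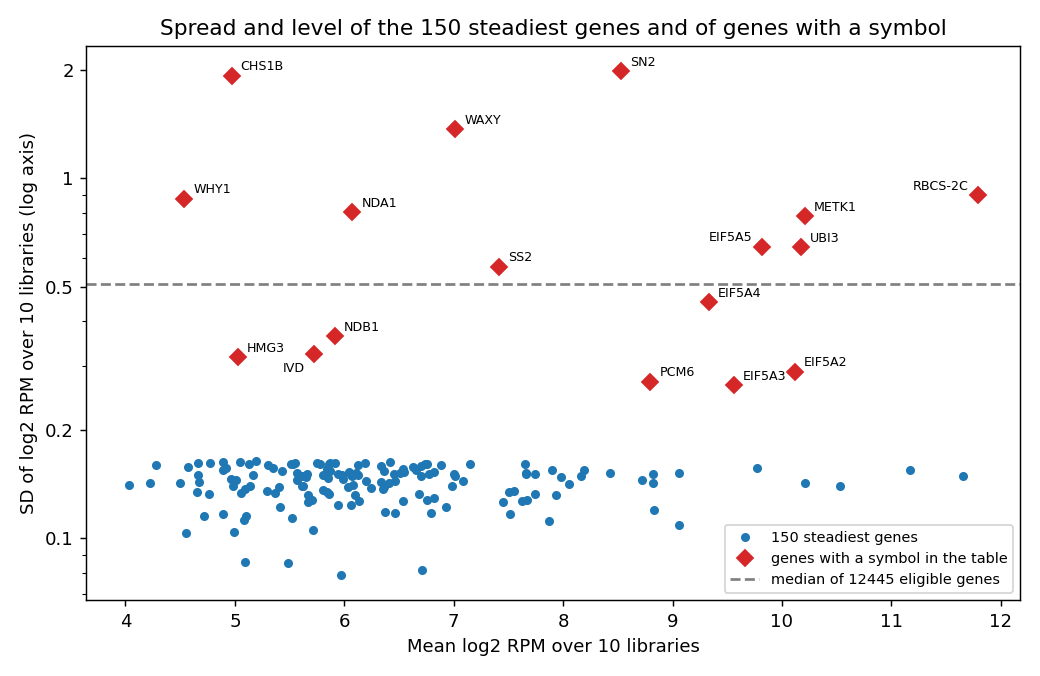
Each point is 1 gene, with its mean log2 RPM over 10 libraries on the horizontal axis and the SD of log2 RPM on a logarithmic vertical axis; blue points are the 150 steadiest genes, red diamonds the 17 eligible genes that carry a symbol, and the dashed line is the eligible median of 0.508. The blue points lie between 0.079 and 0.163 across the whole range of RPM, below every red diamond.

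The steadiest gene was PGSC0003DMG401001521 (chromosome 2, 38536735 to 38544336, plus strand, SolTub 3.0). Its control levels were 61.8, 66.7, 58.3, 57.7 and 63.5 RPM from 0 h to 4 w, and its US levels were 66.8, 61.0, 61.1, 66.9 and 64.4 RPM. The ranges of control and US overlapped in part, with the lowest libraries in the controls, and the highest library was 1.16 times the lowest (SD 0.079). The span of this gene overlaps another feature, and the sources used here do not say whether reads were counted by strand, so its value is uncertain. The next gene, PGSC0003DMG400028344 (chromosome 5, 95189 to 98577, minus strand), overlaps no other feature. It was at 102, 118, 108, 106 and 102 RPM in the controls and at 107, 104, 107, 102 and 94.96 RPM in US. Apart from the control at 24 h its libraries stayed between 94.96 and 108 RPM (SD 0.081).

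PGSC0003DMG400017049 (chromosome 1, 71238958 to 71244952, minus strand) stood at 49.8, 47.1, 47.0, 44.1 and 42.8 RPM in the controls and at 43.4, 44.4, 43.5, 40.7 and 46.7 RPM in US. Its controls were each lower than the one before, while in US the highest library was that of 4 w (SD 0.085). PGSC0003DMG400004231 (chromosome 12, 38250036 to 38254745, minus strand) had control levels of 32.9, 37.0, 32.2, 32.2 and 37.0 RPM and US levels of 34.7, 35.3, 31.3, 35.6 and 34.2 RPM. Both treatments shared the same band from 31.3 to 37.0 RPM (SD 0.086). These 4 genes were the only eligible ones with an SD under 0.1.

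The other 6 of the 10 steadiest genes had an SD of 0.104 to 0.112. PGSC0003DMG400015208 (chromosome 3, 50268876 to 50273810, minus strand) was at 48.8, 56.5, 48.4, 56.4 and 53.9 RPM in the controls and at 49.0, 47.5, 55.7, 56.9 and 52.9 RPM in US. Its high and low libraries came from both treatments, and its highest library was 1.20 times its lowest. PGSC0003DMG400002842, PGSC0003DMG401018705 and PGSC0003DMG400018851 had means of 23.6, 32.0 and 34.1 RPM. PGSC0003DMG400025722 had a mean of 235 RPM, with 207 RPM in the control at 0 h as its lowest library. PGSC0003DMG400008196 (chromosome 8, 35227392 to 35230628, plus strand) had the highest mean RPM of the 10, where RPM is not corrected for gene length. It was at 548, 523, 562, 478 and 542 RPM in the controls and at 587, 521, 485, 501 and 597 RPM in US, so the libraries of 1 w were among its low ones and that of US at 4 w was its highest.

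**Figure D2:**
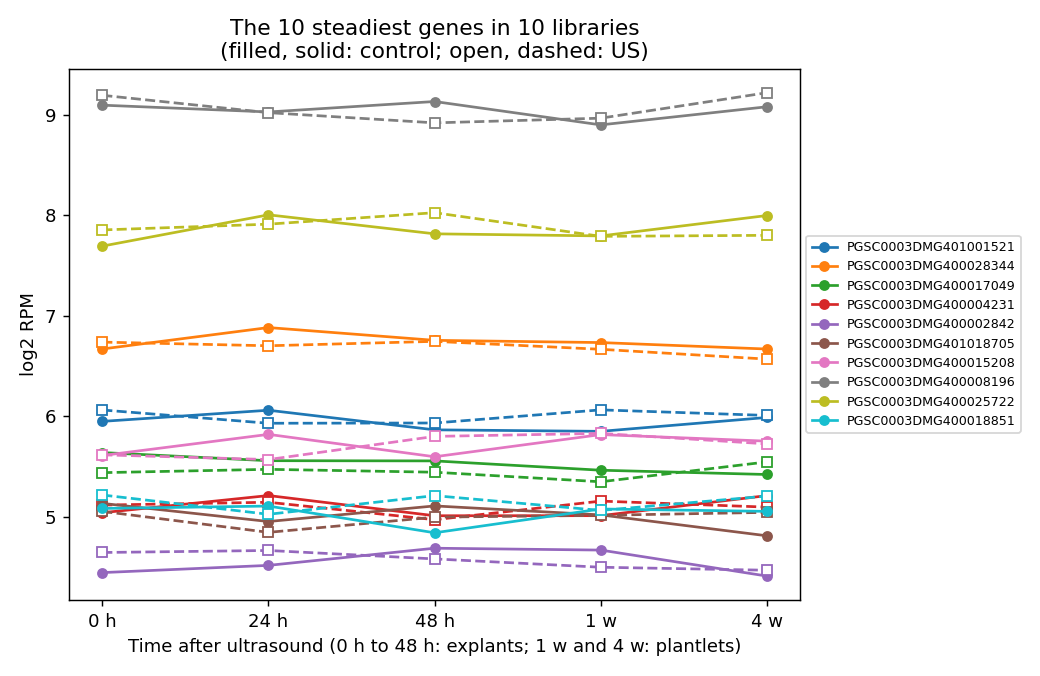
Lines give the log2 RPM (vertical axis) of the 10 steadiest genes at 5 times (horizontal axis), with filled circles and solid lines for control and open squares and dashed lines for US. The lines of a gene cross or run close together at every level from 23.6 to 535 mean RPM, and neither treatment lies above the other at all 5 times for any of them.

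Steady genes were found in all classes of RPM. Of the 150, 20 had a mean log2 RPM between 4 and 5, 51 between 5 and 6, 45 between 6 and 7, 19 between 7 and 8, and 15 of 8 or more. These were 0.622%, 1.39%, 1.56%, 1.21% and 1.35% of the eligible genes in those classes, so the lowest class held the smallest share. The steadiest members by class, from low to high, were PGSC0003DMG400002842, PGSC0003DMG401001521, PGSC0003DMG400028344, PGSC0003DMG400025722 and PGSC0003DMG400008196. The member of highest mean RPM was PGSC0003DMG400015245 (chromosome 3, 50819866 to 50822316, plus strand). Its control levels were 3816, 3330.2, 3017, 3404 and 3736 RPM, and its US levels were 2760.04, 2951, 3095, 3318 and 3069.8 RPM. The lowest library of this gene was US at 0 h and the highest the control at 0 h, so its range of 1.38 times lay between the treatments at a single time.

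The limit of 150 fell in a dense run of genes. The last gene inside it, PGSC0003DMG400014868, had an SD of 0.1633, and the first outside, PGSC0003DMG400029482 (chromosome 4), had 0.1639. The latter was at 45.3, 54.6, 46.7, 55.4 and 43.2 RPM in the controls and at 59.3, 45.9, 53.9, 43.3 and 50.7 RPM in US. Its high and low libraries again came from both treatments. A further 7 of the 2608 genes with a mean log2 RPM between 3 and 4 had an SD within that of the members.

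The table names 22 PGSC genes by a symbol, of which 17 were eligible and 0 were among the 150. The 150 were 1.21% of all eligible genes, so 0 of 17 is near that share and nothing is read from it. Several of them belong to the classes from which reference genes are usually taken. UBI3, a ubiquitin joined to a ribosomal protein and a common reference gene in potato and tomato, had a mean of 1248 RPM and an SD of 0.644. Its controls were at 1175, 1755, 1269, 1232 and 827 RPM and its US libraries at 777, 1659.9, 1486, 1855 and 444 RPM. In both treatments it was lowest at 4 w, its highest library was 4.18 times its lowest, and its SD ranked 8246 among the eligible genes.

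Among the 17 eligible genes with a symbol, the steadiest were EIF5A3 and PCM6. EIF5A3, a copy of the translation factor eIF5A, had an SD of 0.266 and PCM6, a calmodulin that binds calcium, one of 0.272. They ranked 1333 and 1446 among the eligible genes. The other copies of eIF5A spread further, at 0.290 for EIF5A2, 0.452 for EIF5A4 and 0.645 for EIF5A5. Only uniquely aligned reads were counted, so reads that fit several copies of a family are missing and the values of such copies are uncertain. Of the 17 genes, 7 had an SD below the eligible median and 10 one above it. CHS1B (chalcone synthase, the entry to flavonoid synthesis) and SN2 (the antimicrobial peptide snakin-2) were at the far end with 1.92 and 1.98.

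The 150 genes did not deviate equally in all libraries. The control at 0 h was their lowest point, with a median deviation from the gene's own mean of -0.08, and 107 of the 150 were below their mean there. In 31 genes it was the lowest of the 10 libraries. US at 0 h went the other way, with a median of 0.03, and was the highest library of 27 genes. In the other 8 libraries the median deviation lay between -0.04 and 0.05. The eligible genes had their lowest medians in both 0 h libraries, so in those libraries the 150 genes stood above the median of the eligible genes. The first principal component of the 150 held 18.6% of their variance and that of the eligible genes 48.6%, values from which nothing is read because the choice used the same 10 libraries. The component of the 150 had its strongest weight on US at 0 h, and the second on the control at 0 h.

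**Figure D3:**
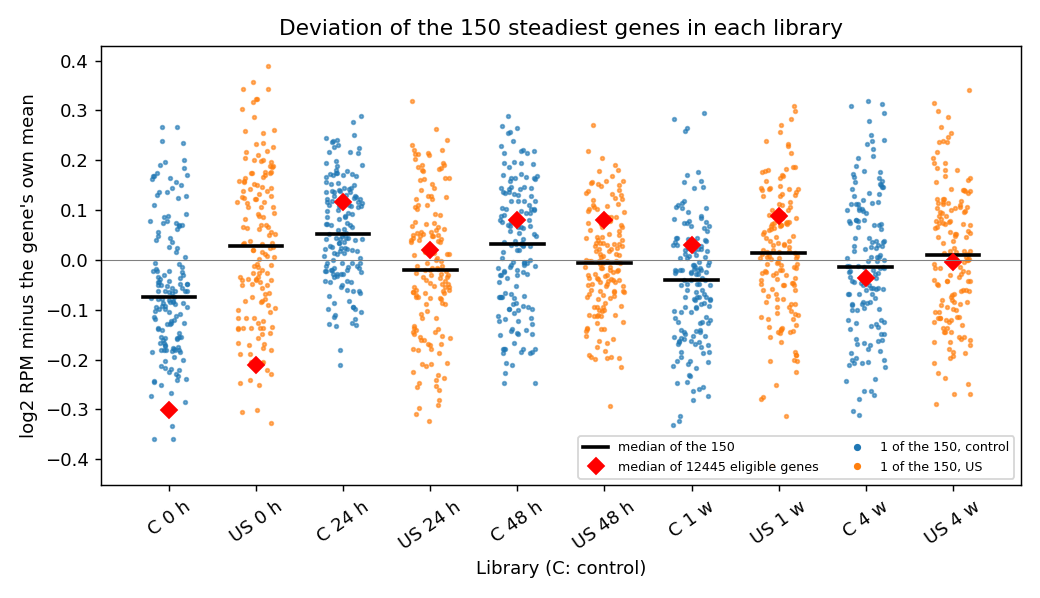
Points give, for each of the 150 genes in each of 10 libraries (horizontal axis), the log2 RPM minus the gene's own mean (vertical axis), in blue for control and orange for US; black bars are the medians of the 150 genes and red diamonds those of the eligible genes. The black bars stay between -0.08 and 0.05, while the red diamonds drop to -0.30 and -0.21 at 0 h.

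Control and US were next set side by side at each time. By a rule of size, a log2 difference of at least 2 (4-fold) with at least 1 RPM in the higher library, 0 of the 150 genes differed at any time. Among all features that reached 1 RPM, the rule took 3.75% (0 h), 3.21% (24 h), 4.19% (48 h), 1.73% (1 w) and 5.42% (4 w). At a log2 difference of at least 1 the number was also 0, where all features gave 19.4%, 15.6%, 18.6%, 8.69% and 18.1% in the same order. Nothing is read from this contrast, because the choice of genes used the same values. The median size of the difference in the 150 genes was 0.16 (0 h), 0.13 (24 h), 0.11 (48 h), 0.12 (1 w) and 0.14 (4 w) on the log2 scale, where the eligible genes had medians of 0.25 to 0.37.

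The 150 genes did not lean the same way at each time. In the order of the times, US was the higher library for 98, 49, 60, 102 and 75 of them. Over the eligible genes the share higher in US was 51.4%, 41.3%, 47.1%, 52.3% and 50.3%. These shares leaned the same way as the 150 genes at 0 h, 24 h, 48 h and 1 w, if only slightly at 0 h and 1 w. The median difference, US minus control, was 0.08, -0.07, -0.04, 0.07 and 0.00 on the log2 scale. With libraries scaled to the median of the eligible genes it was -0.01, 0.03, -0.04, 0.01 and -0.03, so the direction turned at 0 h, 24 h and 4 w, and with quantile normalisation it turned at 48 h (0.02) and 4 w (-0.03). Direction in these genes therefore rests on the scaling at every time but 1 w. At all 5 times, 6 of the 150 genes (4%) were higher in US and 7 (4.67%) were lower, where the eligible genes gave 1.15% and 2.63%, and nothing is read from these shares, since the choice used the same values.

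Steady over 10 libraries did not mean alike at every time. The largest difference was that of PGSC0003DMG400016885 (chromosome 4, 69107453 to 69112425, minus strand) at 0 h. Its controls were at 39.0, 43.3, 45.9, 40.7 and 50.1 RPM and its US libraries at 57.8, 48.7, 45.0, 48.6 and 45.8 RPM. The difference of 0.57 on the log2 scale at 0 h came from its lowest library (control) and its highest (US), a ratio of 1.48 with an exact 95% interval of 1.38 to 1.59 from the reads. Such intervals cover counting error only.

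At 24 h the largest difference was in PGSC0003DMG400014868, the last gene inside the limit (chromosome 3, 7008714 to 7015292, minus strand). It stood at 40.3, 43.4, 36.7, 36.8 and 40.9 RPM in the controls and at 37.0, 29.6, 35.1, 36.8 and 32.1 RPM in US. The US library of 24 h was the lowest of the 10 and 0.681 times its control (95% interval 0.633 to 0.733). At 48 h PGSC0003DMG400010834 was at 292 RPM in the control and at 223 RPM in US, with its other libraries between 206 and 271 RPM. At 1 w PGSC0003DMG400022712 was at 79.0 RPM in the control and 54.7 RPM in US, and no other library of it was below 67.8 RPM. At 4 w PGSC0003DMG400020758, which overlaps another feature, was at 27.0 RPM in the control and 38.4 RPM in US, and its other libraries lay between 26.8 and 33.0 RPM.

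PGSC0003DMG400027775 (chromosome 1, 71178614 to 71180353, plus strand) had the largest range of the 150, 0.58 on the log2 scale. It was at 28.0, 30.4, 33.3, 36.2 and 29.5 RPM in the controls and at 26.8, 24.2, 28.4, 31.1 and 31.1 RPM in US. From 0 h to 1 w its US library was the lower of each pair, and at 4 w it was the higher.

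Over culture time the steps of the 150 genes were of the size of their differences between treatments. The choice by SD limits both, so nothing is read from this likeness. Between neighbouring times their median step was 0.11 to 0.18 in size on the log2 scale, where the eligible genes had medians of 0.29 to 0.78. The largest step of a member was 0.44 to 0.56. By the 4-fold rule 0 of the 150 differed at any step. The choice of genes fixed this count, since no member had a range above 0.58 on the log2 scale, so nothing is read from it. All features gave 16%, 4.93%, 8.99% and 7.57% for the successive steps of the controls, and 19.9%, 8.68%, 5.15% and 15.7% for those of US. Within the 6 explant libraries the median SD of the 150 genes was 0.143, beside 0.492 for the eligible genes. Within the 4 plantlet libraries it was 0.132, beside 0.339. The highest SD of a member was 0.202 in explants and 0.265 in plantlets. The choice by SD used these libraries, so nothing is read from these values.

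Of the sum of squares of a gene over the 10 libraries, a median of 46.6% lay between the 5 times and 6.59% between control and US over all times. For the eligible genes these medians were 80.4% and 1.63%. Values with no structure at all would give 44.4% to time and 11.1% to treatment on average, since time takes 4 of the 9 degrees of freedom. These are averages and the values above are medians over genes, so they cannot be compared directly. The contrast with the eligible genes is not read either, because the choice by SD used the same values.

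In 13 of the 150 genes (8.67%) over 80% of the variation lay between times, beside 50.8% of the eligible genes. A lower share follows from the choice, since a small SD leaves out genes that changed much over time, so nothing is read from it. The clearest was PGSC0003DMG400003048 (chromosome 8, 54108942 to 54115733, minus strand) with 96.1%. Its controls were at 221, 223, 192, 167 and 195 RPM and its US libraries at 228, 230.2, 205, 175 and 193 RPM. Control and US went through the same course, high at 0 h and 24 h and lowest at 1 w. Between explants and plantlets the 150 genes differed by a median of -0.01 on the log2 scale, plantlet minus explant, and by at most 0.25 in size.

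Values in libraries that had no part in the choice show how far the steadiness carries over. For this purpose the 150 steadiest genes were chosen anew, each time without some libraries, and were read in the libraries left out. Eligibility was set anew for each choice, also for the single times below, which gave 12342 to 12664 eligible genes. Chosen on the 5 controls and read in the 5 US libraries, the genes had a median SD of 0.268, beside 0.557 for the eligible genes, and 45 of them were shared with the 150 described above. Chosen on US and read in the controls, they had 0.243 beside 0.484, and 51 were shared. The least steady were PGSC0003DMG400012294 at 0.749 in US and PGSC0003DMG400002019 at 0.679 in the controls. The median SD in libraries not used was thus below that of the eligible genes and above the 0.145 found with the choice itself. No test was made, since genes are not replicates.

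The same held for single times. Chosen without the 24 h libraries, the genes had a median size of US minus control at 24 h of 0.16 on the log2 scale, beside 0.28 for the eligible genes. The corresponding values were 0.18 and 0.33 for 48 h, 0.17 and 0.25 for 1 w, and 0.21 and 0.32 for 4 w. Those for 0 h were 0.29 and 0.38. The 0 h libraries also lay farthest from the others in level. Genes chosen on the later 8 libraries shifted by a median size of 0.37 at 0 h, beside 0.67 for the eligible genes. The largest shift of a single chosen gene was 3.80. For the 24 h, 48 h and 1 w libraries left out in turn the median shift was 0.12 to 0.15, beside 0.29 to 0.33. For 4 w it was 0.21 beside 0.41 for the eligible genes.

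**Figure D4:**
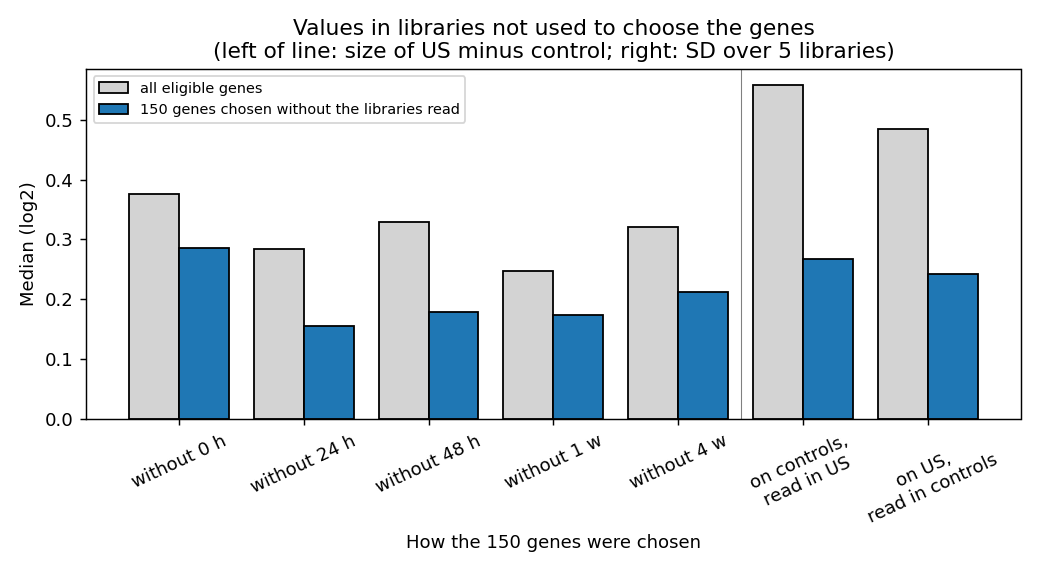
Pairs of bars compare 150 genes chosen without the libraries in which they are read (blue) with all genes eligible for that choice (grey). The vertical axis is a median on the log2 scale. For the 5 pairs on the left it is that of the size of US minus control at the time left out. For the 2 pairs on the right it is that of the SD over 5 libraries. Blue is lower in each pair, in the libraries of 0 h too (0.29 beside 0.38).

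Means over several of the chosen genes were also read in the libraries not used. The single steadiest gene of the controls had an SD of 0.528 over the US libraries. The mean log2 RPM of the 3 steadiest had 0.351, that of the 10 steadiest 0.216 and that of all 150 genes 0.102. Chosen on US and read in the controls, the values were 0.349, 0.259, 0.170 and 0.096. In both directions the spread of the mean fell with each larger number of genes. Set against the median single gene of the chosen lists (0.268 and 0.243), the first gene and the mean of 3 genes spread more, and the means of 10 and of 150 genes less.

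Membership of the list depended on the scaling, the measure and the libraries. With each library scaled to the median of the eligible genes, 45 of the 150 genes stayed on a list of the same size. Upper quartile scaling left 86 and quantile normalisation 89. By geNorm M, which compares each gene with every other by their ratio and so does not depend on scaling, 53 stayed, and the median M of the 150 was 0.623 beside 0.778 for the eligible genes. The coefficient of variation left 141, the range 115 and the SD above counting error 149. Without the control at 0 h 96 stayed and without US at 0 h 94, while leaving out any other single library left 109 to 132. On the 4 plantlet libraries alone the list shared 10 genes with the 150.

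**Figure D5:**
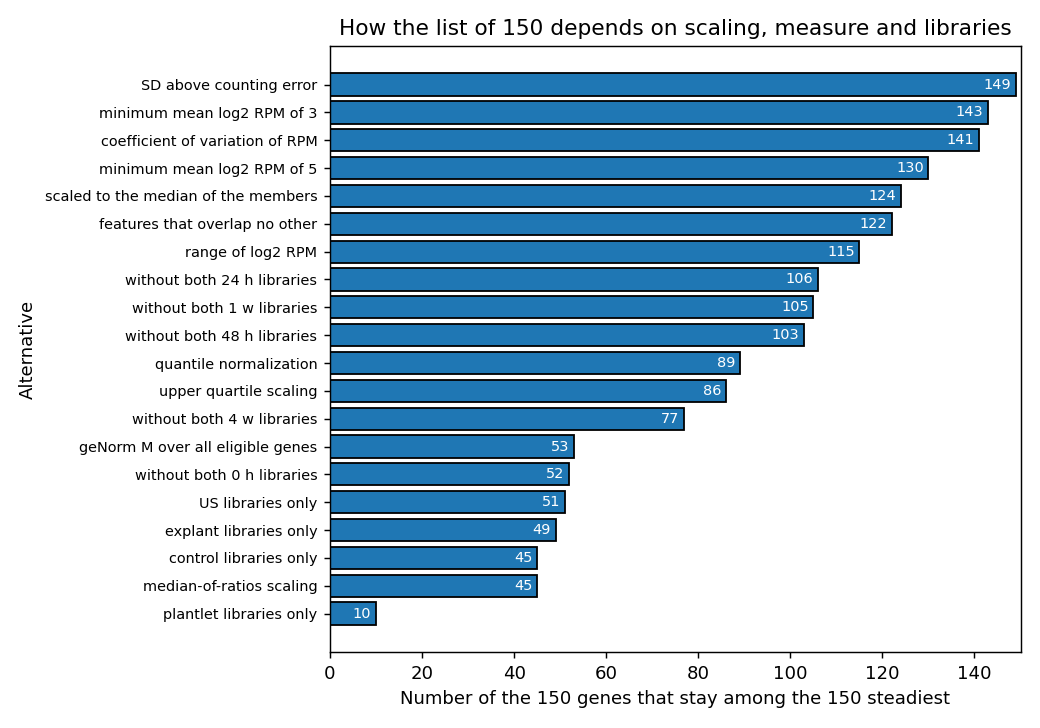
Bars give how many of the 150 genes (horizontal axis) stay among the 150 steadiest under each of 20 other choices of scaling, measure, minimum level, features or libraries (vertical axis). The count runs from 149 for SD above counting error down to 45 for median-of-ratios scaling and 10 for the plantlet libraries alone.

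A core of 31 genes stayed under all 3 other scalings and all 4 other measures. The 5 of smallest SD among them were PGSC0003DMG400028344, PGSC0003DMG400004231, PGSC0003DMG400002842, PGSC0003DMG400015208 and PGSC0003DMG400025722. PGSC0003DMG400015208 was the only gene that stayed under all 29 alternatives of scaling, measure, minimum level, features and libraries. This needs a place on the lists from explants alone and from plantlets alone, which shared only 2 genes. Nothing is therefore read from its being the only one. The alternatives also reuse the same libraries and are not separate checks. PGSC0003DMG400028344 and PGSC0003DMG400004231 each stayed under 28 of the 29. The steadiest gene of all, PGSC0003DMG401001521, stayed under 26. The lists made from the controls alone and from US alone shared 10 genes, 6.67% of each, and all 10 were among the 150. Those from explants alone and plantlets alone shared 2, PGSC0003DMG400015208 and PGSC0003DMG400027738, or 1.33% of each. Each of these lists held 1.20% to 1.21% of the eligible genes. The 1.33% is near that share, so nothing is read from the 2 shared genes.

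Position and length on the genome were not used by the rule itself. RPM is not corrected for gene length, so length may still bear on which genes were eligible and chosen. The values below are described and not read further. The spans of the 150 genes on the genome had a median of 5770 bases, beside 4392 bases. On the plus strand lay 45.3% of them, beside 50.7%. Every numbered chromosome held some, from 25 on chromosome 1 (1.55% of its eligible genes) to 5 on chromosome 9 (0.562%), and 0 of the 138 eligible genes without a chromosome was among them. In 28 genes (18.7%) the span overlapped another feature, beside 12.5% of the eligible genes.

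Members mostly lay apart from each other, with 9 pairs closer than 100000 bases. In 3 of these the genes overlap on opposite strands, so that the members of a pair may share reads and need not be separate evidence. Whether they share reads was not tested. PGSC0003DMG400022231 and PGSC0003DMG402022117 on chromosome 7 share 3649 bases and had means of 188 and 182 RPM. PGSC0003DMG401021901 and PGSC0003DMG402021901 on chromosome 5 share 3026 bases, at 129 and 101 RPM. PGSC0003DMG401018705 and PGSC0003DMG402018705 on chromosome 11 share 2672 bases, the whole span of the latter, at 32.0 and 25.3 RPM. Their correlation was only 0.110.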

How the data were processed

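RNA was enriched for mRNA, made into stranded libraries and sequenced as paired ends. Per the labels and methods, base calling used CASAVA 1.7, reads were trimmed with Trim Galore 0.5.0 and aligned to SolTub 3.0 with HISAT2 2.1.0, and uniquely aligned reads in exons were counted per gene in SeqMonk. The authors deposited 1 table of log2 RPM, scaled to the library total, with no filter on level and with genes without reads set to the value of 0.9 reads. Of the values above that, 99.98% came within 0.1 of a whole read, which gave the totals, counting errors and exact (Clopper-Pearson) intervals. These treat reads as independent molecules. Gene reads summed to 1.71 to 1.77 times the total, so a read pair can count more than once.

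The 150 genes were chosen by SD (n - 1) in Python 3.11.15 with NumPy 2.4.6, pandas 2.3.3 and SciPy 1.17.1. On simulated data for 12445 genes with 150 steady ones, 99.3% were recovered. The simulated steady genes were set far below all others in SD, a gap that the real genes at the limit lack. The simulation thus checks the code and not how reliable the list is. Libraries were grouped by treatment and time as the labels give them. With 1 library per group, and because SD chose the genes, no test was run and no p-value is given. Levels are per library total and not per gene length, so the classes and order of genes by RPM are not ones of transcript abundance.

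Genes named are the 10 of smallest SD, the steadiest of each level class, the one of highest mean RPM, those at the limit of 150, those with the largest difference between treatments or the largest range, and up to 5 kept by every scaling and measure. Further genes (the largest differences at the remaining times, the extremes of genes chosen without some libraries, the gene whose variation lay most in time, overlapping pairs and genes with a symbol) were named after their values were seen. The members and lists were chosen with earlier results of these data known. The description field was filled in 0 of the features, and of the PGSC identifiers 0 were found in the RefSeq gene table, so groups by function, and the sequences of members, were not analysed here. Alternatives were other scalings, measures, minimum levels, libraries and features, and choosing genes without the libraries in which they were read.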

Additional observations from a re-analysis of the deposited data

How the results depend on the processing

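The number of the 150 genes that stayed among the 150 steadiest was 45 with median-of-ratios scaling, 89 with quantile normalisation, 86 with upper quartile scaling and 53 by geNorm M. It was 45 on control libraries only, 51 on US libraries only, 49 on explant libraries only and 10 on plantlet libraries only. The median SD over all 10 libraries of the genes so chosen was 0.186 with median-of-ratios scaling, 0.178 by geNorm M, 0.2004 on controls, 0.184 on US, 0.193 on explants and 0.355 on plantlets, against 0.145. The cause of these differences was not tested. When libraries were left out, the number that stayed ran from 52 to 132 and the median SD from 0.145 to 0.205. The lowest number, 52, and the highest SD came without both 0 h libraries, and without both 4 w libraries 77 stayed. A minimum mean log2 RPM of 3 left 143 and one of 5 left 130, and features that overlap no other left 122. Scaling each library to the median of the 150 genes themselves, an alternative chosen after seeing the data, left 124. The number past a log2 difference of 1 was also 0 at each time, where all features gave 8.69% to 19.4%. The choice of genes fixed this count, since the largest range of a member was 0.58, so nothing is read from it.

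The SD expected from counting reads reached 0.057 in these genes, and the measured SD was as little as 2.19 times it. Further limits are 1 library per group, the scaling to the library total, and a list read from the same values that chose it.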
